A study of Mus musculus with 12 samples.

Results

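Transcripts of 9 complement genes, C1qa, C1qb, C1qc, C3, C4b, Cfb, Cfp, C3ar1 and C5ar1, were followed in bone marrow-derived macrophages (BMDM) before and after activation with LPS. The genes were taken by symbol from the 43280 genes of the deposited expression table, and all 9 were found. BMDM were grown with M-CSF from the marrow of C57BL6 mice that were wild type (wt) or lacked Treml4 (Treml4-/-), a receptor of the TREM family on myeloid cells. After 6 days of culture the cells received either the vehicle PBS (M0) or 100 ng/ml LPS for 8 h (M1-8 h) or 12 h (M1-12 h), so that vehicle was the control at 0 h of LPS for both genotypes. Each of the 6 conditions had 2 samples labelled as biological replicates, 12 libraries in all. The labels do not say whether replicates came from separate animals or how old these were, and p-values therefore measure the spread between these samples. BMDM are a culture model grown with 1 growth factor, and levels in tissue macrophages were not measured.

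Complement is a protein cascade that marks targets for uptake and lysis. C1q, built from the chains encoded by C1qa, C1qb and C1qc, starts the classical pathway and leads through C4 to the cleavage of C3, the component on which all routes meet. Factor B (Cfb) and properdin (Cfp) form and stabilise the alternative-pathway convertase that amplifies C3 cleavage. The fragments C3a and C5a act on the receptors encoded by C3ar1 and C5ar1. Macrophages are a major source of C1q and properdin, whereas circulating C3, C4 and factor B come mostly from the liver.

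Between 48008751 and 58500792 reads were counted on genes per library, so that 3 reads corresponded to 0.0513 to 0.0625 CPM, the read count scaled to a common library total. Treml4 had 0 reads in all 6 Treml4-/- libraries and 3.95 to 13.2 CPM in wt, and Nos2, an enzyme induced by LPS, was at 3.39 to 6.90 CPM in the M0 libraries and at 15559.6 CPM or more in all LPS libraries. The library wt M0 replicate 1 stood apart. In it 8 genes with at least 1 CPM exceeded the highest other M0 library by at least 5-fold, whereas no gene did so in any of the other 3 M0 libraries. C4b was one of these genes. The others were Fn1 (37.4 CPM), Alox15 (9.76 CPM), Prg4 (8.77 CPM), Ltbp1, Timd4, Selp and Cxcl13 (1.02 to 1.93 CPM). These genes were picked after their values were seen, and calls of the followed complement genes that changed without that library are given both ways.

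The regions upstream of the transcription start are shown for a component and a receptor with contrasting responses at 8 h of LPS, C3 and C3ar1. RefSeq promoters (GRCm38.p6) matched 6 of the 9 genes, and C1qa, C4b and Cfb had no match. In each 250-base window before the start, 5 motifs were searched on both strands: the kappaB consensus, a C/EBP half-palindrome (TTNNGCAA), the interferon-stimulated response element ISRE (GAAA and GAAA with 2 bases between them), AP-1 (TGANTCA) and PU.1 (GAGGAAG). Capitals mark the matches, a C/EBP match in C3 that began 45 bases before the start and an AP-1 match in C3ar1 that began 22 bases before it. The C3 window lies at chr17:57228137-57228386 and that of C3ar1 at chr6:122856162-122856407, both on the minus strand. The last 4 bases before the RefSeq start of C3ar1 lie inside its GENCODE gene and are not shown.
C3: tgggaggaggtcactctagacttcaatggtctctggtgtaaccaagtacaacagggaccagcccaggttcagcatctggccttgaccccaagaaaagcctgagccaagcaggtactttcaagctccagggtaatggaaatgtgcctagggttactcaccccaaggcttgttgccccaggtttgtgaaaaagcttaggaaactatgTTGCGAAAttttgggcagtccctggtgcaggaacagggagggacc
C3ar1: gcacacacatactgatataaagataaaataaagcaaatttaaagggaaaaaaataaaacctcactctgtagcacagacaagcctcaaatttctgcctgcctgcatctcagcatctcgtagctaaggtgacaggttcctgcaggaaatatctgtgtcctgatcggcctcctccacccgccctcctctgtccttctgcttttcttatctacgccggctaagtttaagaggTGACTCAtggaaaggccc
Such matches were common. Of all 32851 RefSeq windows of this length, 9.56% held the C/EBP motif and 6.75% the AP-1 motif. The kappaB consensus and the PU.1 motif, present in 3.90% and 10.6% of the windows, were found only in C1qc among the 6 genes, beginning 41 and 194 bases before its RefSeq start, the first of them inside the GENCODE gene. ISRE, present in 2.98%, was found in none of the 6. C1qb, Cfp and C5ar1 held no match, and none of the matches overlapped another.

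In M0, C1qb and C3ar1 were the most abundant transcripts and Cfb was barely detected, and within 8 h of LPS C3 joined C1qb at the top. Levels of different genes were compared per kilobase of annotated exon. In M0, C1qb reached 487 ± 51.4 CPM per kilobase (SD, n = 4 libraries), followed by C3ar1 (271 ± 7.09), C1qc (189.8 ± 16.5), C5ar1 (127 ± 15.2), C1qa (82.8 ± 6.61), Cfp (40.2 ± 7.21) and C3 (24.8 ± 3.92). C4b (0.656 ± 1.15) and Cfb (0.0359 ± 0.0129) came last, and no neighbours in this order overlapped between libraries. Reads of C4b and Cfb may have been divided with other genes, as given below, so their levels per kilobase and ranks are uncertain at each time. At 8 h C1qb (744 ± 109) and C3 (691 ± 194) overlapped, as did C3ar1 (97.0 ± 23.8) with C1qa (93.7 ± 11.7), and C5ar1 (69.9 ± 9.21) with Cfp (69.7 ± 9.77). At 12 h C3 led at 985 ± 117 CPM per kilobase, above every library's C1qb (708 ± 34.7). C1qc (208 ± 13.9) and C3ar1 (207 ± 34.1) overlapped there, and C5ar1, the fourth in M0, had come to rank eighth at 11.2 ± 2.32. The 9 genes together took 0.254% to 0.286% of all counted reads in M0, 0.494% to 0.707% at 8 h and 0.708% to 0.808% at 12 h. C3 alone gave 4.18% to 5.40% of these complement reads in M0 and 65.0% to 73.5% at 12 h.

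**Figure D1:**
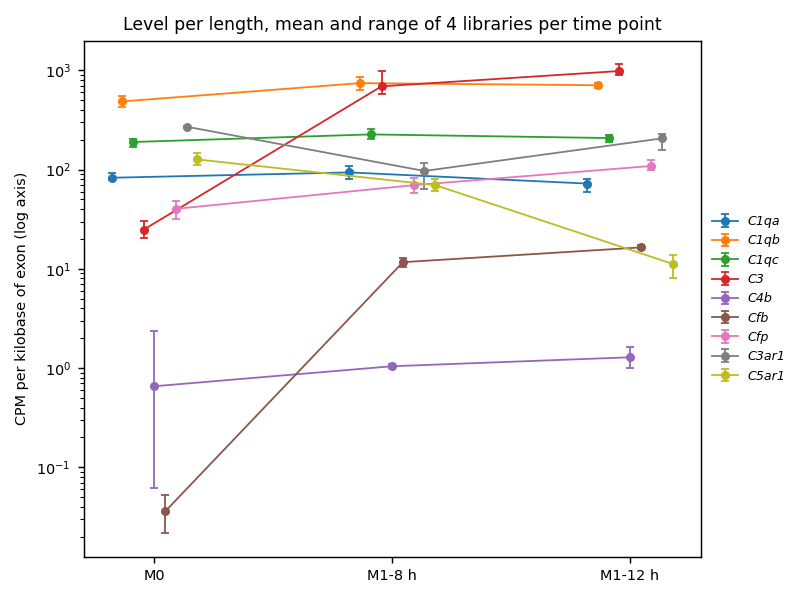
Level of each complement transcript in CPM per kilobase of exon on a log axis, as the mean (point) and range (bar) of the 4 libraries of a time point, both genotypes together. C3 climbed from 24.8 to 985 and Cfb from 0.0359 to 16.4, whereas C5ar1 dropped from 127 to 11.2. The levels of C4b and Cfb are uncertain, as their reads may have been divided with other genes.

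LPS raised the alternative-pathway and central components and lowered the anaphylatoxin receptors at 8 h, although the fall of C5ar1 was lost with median of ratios scaling. Changes were tested with limma on log2(CPM + 1), averaged over both genotypes, and called at an adjusted p under 0.05 with a fold change of at least 1.4. At 8 h 7 of the 9 genes were called, beside 76.9% of all 12086 genes tested. The 5 that rose were C3, Cfb, C4b, Cfp and C1qb, where 17.1% of all genes rose, and the 2 that fell were C3ar1 and C5ar1, where 59.8% of all genes fell. At 12 h 6 were called (76.5% of all genes), the same 5 genes upward (16.3% of all genes) and C5ar1 downward (60.3%). The median log2 fold change was 0.61 over the 9 genes and -0.72 over all genes at 8 h, and 0.55 and -0.76 at 12 h.

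**Figure D2:**
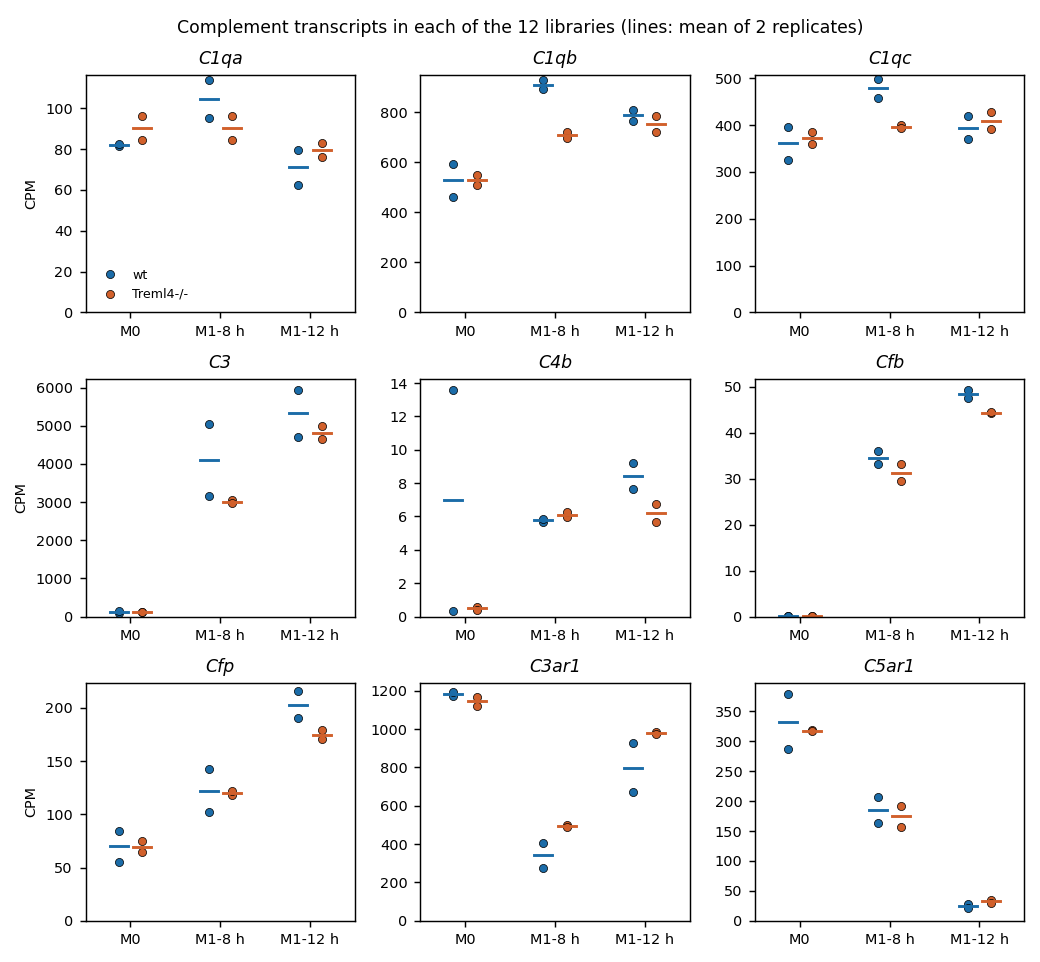
CPM of the 9 complement transcripts in every library, with time of LPS on the horizontal axis, wt in blue and Treml4-/- in orange, a point per library and a line at the mean of the 2 replicates. All axes start at 0. C4b in wt M0 replicate 1 (13.6 CPM) lies above all other libraries of that gene.

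The 3 C1q genes lie next to each other on the minus strand of chromosome 4 (GRCm38), with C1qb at 136880129-136886187, C1qc at 136889804-136893065 and C1qa at 136895917-136898803. C1qb was at 463 and 594 CPM in the wt M0 libraries and at 551 and 509.7 CPM in the Treml4-/- ones. At 8 h it was at 928 and 894 CPM in wt and at 721 and 696 CPM in Treml4-/-, and at 12 h at 809.6 and 766 CPM in wt and 721 and 786 CPM in Treml4-/-. Every LPS library was above every M0 library. On the log2 scale the gene rose by 0.61 (SE 0.08, adjusted p = 1.56e-05) at 8 h and 0.55 (SE 0.08, adjusted p = 3.82e-05) at 12 h, close to the 1.4-fold limit. Quantile normalization gave 0.40 and 0.39, under that limit, and leaving out wt M0 replicate 1 gave 0.46 at 12 h. C1qc covered 325 to 397 CPM in M0, 393 to 499 CPM at 8 h and 369.6 to 428 CPM at 12 h, and the M0 libraries overlapped those of both LPS times. Its log2 fold change was 0.25 (SE 0.08, adjusted p = 0.00881) at 8 h, under the fold limit, and 0.13 (SE 0.08, adjusted p = 0.117) at 12 h. C1qa covered 81.7 to 96.3 CPM in M0, 84.5 to 114 CPM at 8 h and 62.3 to 83.1 CPM at 12 h. Its log2 fold change was 0.17 (SE 0.09, adjusted p = 0.102) at 8 h and -0.20 (SE 0.09, adjusted p = 0.0648) at 12 h. The sign of the 12 h value turned with the scaling, to 0.64 when libraries were scaled by median of ratios and to 0.16 when they were quantile normalized.

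The C1q protein holds its chains in equal number, and the balance of their transcripts within a library does not depend on library scaling. Per kilobase, C1qb made up 63.3% to 65.7% of the summed C1q transcripts in M0, 68.8% to 71.5% at 8 h and 70.5% to 73.7% at 12 h. C1qa went from 9.52% to 11.7% in M0, over 7.95% to 9.63% at 8 h, to 6.27% to 7.80% at 12 h, and C1qc from 24.7% to 25.3% over 20.6% to 22.0% to 20.0% to 21.7%. The ranges did not overlap between M0 and LPS, except for C1qa at 8 h. The share of C1qb was higher by 5.80 percentage points at 8 h and 7.61 at 12 h (exact two-sided permutation test of 4 against 4 libraries, p = 0.0286 for each, the smallest this design allows, adjusted p = 0.0343 over 6 comparisons). That of C1qa differed from M0 by -2.12 points at 8 h (exact permutation p = 0.0571, adjusted p = 0.0571) and by -3.65 points at 12 h (exact permutation p = 0.0286, adjusted p = 0.0343), and that of C1qc by -3.69 and -3.97 points (exact permutation p = 0.0286, adjusted p = 0.0343 for each). No test of these shares was in the design, and the genotypes were pooled. This p is at its smallest wherever ranges do not overlap. The shares of a library are tied through their sum, so the 6 comparisons are not independent.

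C3, on chromosome 17 (57203970-57228136, minus strand), encodes the central component of the cascade. The wt M0 libraries held 106 and 155 CPM of it and the Treml4-/- ones 123 and 128 CPM. After 8 h it was at 3156 and 5044 CPM in wt and at 3045 and 2963 CPM in Treml4-/-. After 12 h it was at 4701 and 5939 CPM in wt and at 4639.6 and 4987 CPM in Treml4-/-. All 8 LPS libraries were far above the 4 M0 libraries, and at both times wt replicate 2 was the highest. The log2 fold change was 4.76 (SE 0.15, adjusted p = 7.81e-11) at 8 h and 5.30 (SE 0.15, adjusted p = 3.55e-11) at 12 h, that is 27.1-fold and 39.5-fold on the log2(CPM + 1) scale. Between 8 and 12 h C3 rose further by 0.54 (SE 0.15, adjusted p = 0.00917), although the libraries of the 2 times overlapped. This call was lost without wt M1-8 h replicate 1 (0.37) and without wt M1-12 h replicate 2 (0.46).

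C4b encodes C4, the component that C1 cleaves to form the classical convertase, and lies on chromosome 17 (34728380-34743882, minus strand). In M0 it was at 13.6 CPM (705 reads) in wt replicate 1 but at 0.354 CPM in wt replicate 2 and at 0.591 and 0.412 CPM in Treml4-/-. LPS libraries were much more alike, with 5.69 and 5.87 CPM in wt and 5.98 and 6.24 CPM in Treml4-/- at 8 h, and 7.63 and 9.21 CPM in wt and 5.67 and 6.77 CPM in Treml4-/- at 12 h. All 8 LPS libraries thus lay above 3 of the M0 libraries and below the fourth. With all libraries the log2 fold change was 1.43 (SE 0.53, adjusted p = 0.0237) at 8 h and 1.67 (SE 0.53, adjusted p = 0.0107) at 12 h. Without wt M0 replicate 1 it was 2.29 and 2.53, and without wt M0 replicate 2 it was 0.57 and 0.81, so that its size rested on which of these libraries was kept. Each of these fits leaves wt M0 with 1 library, so that the spread between its replicates drops out. The 8 h call was lost without wt M1-8 h replicate 2 (1.42), without Treml4-/- M0 replicate 2 (1.38) and without a filter on low genes (1.43). The part that this library's other high genes play in the C4b value was not tested. C4a, a near-identical copy, was at 0.204 to 0.677 CPM, and reads may have been divided between both genes, so that the level of C4b is uncertain.

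Cfb, the serine protease of the alternative convertase, lies on chromosome 17 (34856374-34862518, minus strand). In M0 it was near the limit of detection with 3 to 8 reads per library, that is 0.0964 and 0.0984 CPM in wt and 0.0611 and 0.150 CPM in Treml4-/-. LPS brought it to 36.0 and 33.2 CPM in wt and 33.2 and 29.5 CPM in Treml4-/- at 8 h. At 12 h it was at 49.3 and 47.7 CPM in wt and at 44.3 and 44.5 CPM in Treml4-/-. The times did not overlap, and replicates lay close together. The log2 fold change was 4.94 (SE 0.08, adjusted p = 2.86e-13) at 8 h and 5.43 (SE 0.08, adjusted p = 1.46e-13) at 12 h. The pseudocount of 1 CPM understates such a change from near 0, and with a pseudocount of 0.1 CPM the values were 7.37 and 7.87. The step from 8 to 12 h, 0.48 (SE 0.08, adjusted p = 0.000216), was just under the fold limit, and it passed with a pseudocount of 0.1 (0.49), median of ratios scaling (0.54), quantile normalization (0.51), voom (0.50) and 4 of the 12 settings that left out a library. In GENCODE 79.5% of the exon bases of Cfb are shared with Gm20547, a gene on the same strand that was listed at 0 reads, so how reads were assigned between them is uncertain.

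Cfp, which encodes properdin, lies on the X chromosome (20925454-20931555, minus strand) and rose in steps. In M0 it was at 84.5 and 55.4 CPM in wt and at 74.7 and 64.8 CPM in Treml4-/-. At 8 h the wt libraries held 143 and 102 CPM and the Treml4-/- ones 118 and 122 CPM, and at 12 h 216 and 191 CPM and 179 and 171 CPM. No library of one time overlapped another time. The log2 fold change was 0.79 (SE 0.13, adjusted p = 0.000142) at 8 h and 1.43 (SE 0.13, adjusted p = 7.62e-07) at 12 h, with 0.64 (SE 0.13, adjusted p = 0.00156) between them.

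C3ar1 and C5ar1, the G protein-coupled receptors for C3a and C5a, started high and took different courses. C3ar1, on chromosome 6 (122847138-122856161, minus strand), was at 1175 and 1195 CPM in wt and 1123 and 1169.7 CPM in Treml4-/- in M0. At 8 h it was at 406 and 277 CPM in wt and at 498 and 488 CPM in Treml4-/-. At 12 h it had risen to 926 and 672 CPM in wt and 985 and 973 CPM in Treml4-/-, below every M0 library. The 8 h libraries were the lowest and did not overlap the others. It fell by 1.52 on the log2 scale at 8 h (SE 0.12, adjusted p = 1.81e-07) and rose by 1.11 from 8 to 12 h (SE 0.12, adjusted p = 1.48e-05). The 12 h value against M0 was -0.41 (SE 0.12, adjusted p = 0.00724), which did not reach the fold limit. It turned to 0.44 under median of ratios scaling and was called after quantile normalization (-0.75). With single libraries left out in turn it ran from -0.52, past the fold limit, to -0.29. Tested within each genotype, the 12 h fall was called in wt and not in Treml4-/-, although the interaction test called no difference between them.

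C5ar1, on chromosome 7 (16246743-16259540, minus strand), was at 287 and 379.8 CPM in wt and 319 and 317 CPM in Treml4-/- in M0. It was at 206 and 163 CPM in wt and 193 and 157 CPM in Treml4-/- at 8 h. By 12 h it was at 28.6 and 20.9 CPM in wt and 35.2 and 30.5 CPM in Treml4-/-, with no overlap between any of the times. The log2 fold change was -0.85 (SE 0.13, adjusted p = 4.88e-05) at 8 h, a fall that vanished with median of ratios scaling (-0.06, adjusted p = 0.706). It was -3.47 (SE 0.13, adjusted p = 2.43e-10) at 12 h and -2.61 (SE 0.13, adjusted p = 5.49e-08) between 8 and 12 h, an 11.1-fold and a 6.12-fold decrease. From 8 to 12 h 4 of the 9 genes were called (32.1% of all genes), with C3, Cfp and C3ar1 upward (13.5% of all genes) and C5ar1 downward (18.7%). The median log2 fold change of this step was 0.24 over the 9 genes and -0.06 over all genes.

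Scaling to total reads placed most genes lower after LPS, and this bears on each LPS value. Median of ratios scaling puts the typical gene near no change by construction, and which scaling is nearer the truth was not tested. With it the median log2 fold change of all genes was -0.04 at both times, in place of -0.72 and -0.76. Higher and lower calls over all genes were then 31.1% and 31.3% at 8 h and 32.6% and 32.6% at 12 h. Under this scaling 8 of the 9 complement genes were called at each time, 7 upward and 1 downward. The C1q genes then rose, with log2 fold changes at 8 h and 12 h of 0.96 and 0.64 for C1qa and 1.05 and 0.98 for C1qc, and of 1.39 for C1qb at 12 h. C3 (5.56 and 6.15), C4b (1.88 and 2.17), Cfb (5.21 and 5.74) and Cfp (1.58 and 2.27) kept their direction. C3ar1 fell at 8 h (-0.72) and C5ar1 at 12 h (-2.63). In these bulk cultures, fewer cells of a type and less RNA per cell cannot be told apart.

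**Figure D3:**
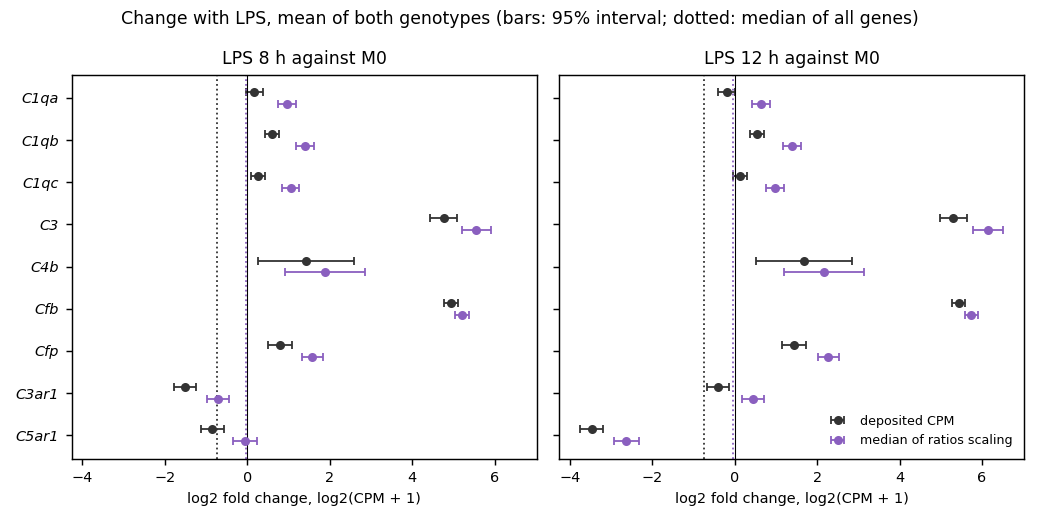
Log2 fold change of each complement gene at 8 h and 12 h of LPS against M0, averaged over both genotypes, with 95% intervals, for CPM as deposited (black) and after median of ratios scaling (purple). Dotted lines mark the median of all 12086 genes. C3 and Cfb lie between 4.76 and 6.15, whereas C1qa and C3ar1 at 12 h lie on either side of 0 depending on the scaling, and C5ar1 at 8 h lies at -0.85 or -0.06.

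Whether loss of Treml4 alters these transcripts was asked by comparing wt with Treml4-/- at each time. No complement gene was called in M0, at 8 h or at 12 h, where 0.0993%, 0.091% and 0.132% of all genes were called. These shares depended on single libraries. They were larger in M0 without wt M0 replicate 1. The same held at 8 h without Treml4-/- M1-8 h replicate 1 and at 12 h without wt M1-12 h replicate 1. Most of the genes then called were lower in wt. Each such fit leaves 1 library in its group, so that the spread between its replicates drops out. At an unadjusted p under 0.05 the counts of complement genes were 0, 3 and 1, beside 3.35%, 21% and 7.55% of all genes, and voom likewise called 0 at each time. At 8 h C1qb was higher in both wt libraries than in both Treml4-/- ones, with a log2 fold change of wt relative to Treml4-/- of 0.36 (95% interval 0.12 to 0.61, unadjusted p = 0.00766, adjusted p = 0.166). C1qc was likewise higher in wt, at 499 and 457 CPM against 399.8 and 393 CPM, by 0.27 (95% interval 0.03 to 0.51, unadjusted p = 0.0307, adjusted p = 0.207). C3ar1 was lower in both wt libraries, by -0.55 (95% interval -0.93 to -0.18, unadjusted p = 0.00756, adjusted p = 0.165), and at 12 h C5ar1 was lower in both wt libraries, by -0.41 (95% interval -0.80 to -0.01, unadjusted p = 0.0448, adjusted p = 0.641). The C3ar1 value was -0.83 without wt M1-8 h replicate 1 and -0.28 without wt M1-8 h replicate 2, and that of C5ar1 was -0.62 and -0.19 without wt M1-12 h replicate 1 or 2. None of these 4 differences passed the correction over all genes. C3 at 8 h differed by 0.41 (95% interval -0.06 to 0.88, adjusted p = 0.293), with the 2 wt libraries further apart than the genotypes, and by 0.75 and 0.07 without wt M1-8 h replicate 1 or 2. For Cfb the intervals lay between -0.24 and 0.37 over the 3 times, and for Cfp between -0.44 and 0.63.

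**Figure D4:**
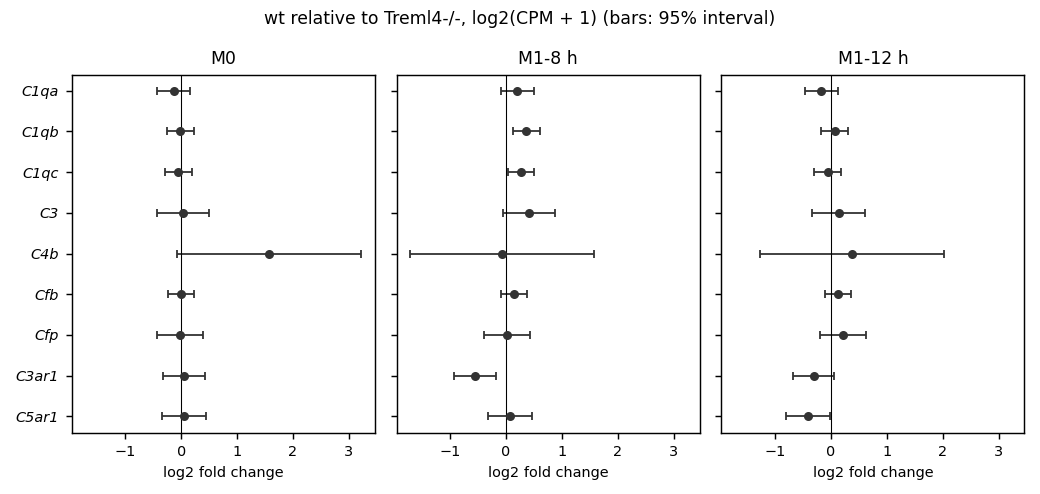
Log2 fold change of wt relative to Treml4-/- for each complement gene in M0, at 8 h and at 12 h, with 95% intervals. Most intervals include 0. The C4b interval is the widest and in M0 runs from -0.08 to 3.22.

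C4b in M0 had the largest genotype value, 1.57 (95% interval -0.08 to 3.22, adjusted p = 1.00), and it rested on 1 library. Without wt M0 replicate 1 it was -0.15, and without wt M0 replicate 2 it was 3.28, a call that leaves the high library alone in its group and assumes that it varies like the other groups. No difference between genotypes in the response to LPS was called for the 9 genes at 8 h or 12 h by the interaction test (limma, 0 called; 0.00827% of all genes at each time; 2 and 0 at an unadjusted p under 0.05, beside 6.67% and 3.82% of all genes; voom 0 at each time). Without wt M0 replicate 1 the 12 h interaction was called for more genes of the table, in a fit that leaves wt M0 with 1 library. The 2 at 8 h were C1qb, 0.38 (95% interval 0.03 to 0.72, unadjusted p = 0.0357, adjusted p = 0.729), and C3ar1, -0.60 (95% interval -1.13 to -0.07, unadjusted p = 0.0290, adjusted p = 0.729). The C1qb value was 0.20 without wt M0 replicate 1 and 0.56 without wt M0 replicate 2. That of C3ar1 was -0.88 without wt M1-8 h replicate 1 and -0.33 without wt M1-8 h replicate 2. C3ar1 fell by 1.82 in wt and by 1.22 in Treml4-/- at 8 h on the log2 scale. These comparisons share the M0 libraries.

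The rest of the pathway was read from a written list of 43 further complement genes, of which 16 were abundant enough to test and 14 had fewer than 3 reads in every library. At 8 h 2 initiating proteases of the classical pathway rose beside the components. C1ra, the C1r protease, went from 3.72 to 5.40 CPM in M0 to 56.1 to 71.8 CPM at 8 h (log2 fold change 3.48), and C1s1, the C1s protease, from 0.059 to 0.163 CPM to 12.9 to 17.4 CPM (3.84). Serping1, the C1 inhibitor, went from 0.0187 to 0.163 CPM to 10.7 to 14.2 CPM (3.63). These 3 were all that rose at 8 h, whereas 11 fell and 2 were not called, beside 17.1% of all genes that rose and 59.8% that fell, so that the split of the 16 was near that of all genes. At 12 h Itgam, a chain of the iC3b receptor CR3, was added (0.51), so that 4 rose, 11 fell and Itgb2, its partner chain, was not called (-0.12), beside 16.3% of all genes that rose and 60.3% that fell. Itgam was near the fold limit and lost its call with quantile normalization (0.13) and without wt M0 replicate 1 (0.47), wt M1-12 h replicate 1 (0.45) or Treml4-/- M1-12 h replicate 1 (0.48). From 8 to 12 h 0 of the 16 rose and 7 fell, beside 13.5% of all genes that rose and 18.7% that fell. By role, at 12 h against M0, 2 of 5 classical and lectin genes rose and 3 fell, 1 of 4 regulators rose and 3 fell, and 1 of 7 receptors and binding proteins rose and 5 fell. The falling regulators included Cd59a, which blocks the membrane attack complex (log2 fold change -1.35 at 8 h and -2.01 at 12 h), and Cr1l (not called at 8 h, -1.18 at 12 h). Among the receptors C5ar2, the second C5a receptor, went from 23.9 to 32.4 CPM in M0 to 0.910 to 2.02 CPM at 8 h and 0.595 to 1.87 CPM at 12 h (-3.52 and -3.70). Cd93, a surface protein first described as a C1q receptor, went from 590.3 to 652 CPM in M0 to 31.1 to 49.4 CPM at 12 h (-3.90). With median of ratios scaling 4 rose and 5 fell at 8 h, and 5 rose and 7 fell at 12 h, where 31.1% and 32.6% of all genes rose and 31.3% and 32.6% fell. None of the 16 was called between genotypes at any time. Cd59a in M0 was at 17.0 and 14.8 CPM in wt and at 10.2 and 10.4 CPM in Treml4-/-, a log2 fold change of 0.58 (limma, unadjusted p = 0.00114, adjusted p = 0.43).

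Other steps of the cascade were near or under the limit of detection at this depth. The 7 terminal-pathway genes all stayed under the filter, with at most 31 reads in a library (C8g), and Hc, which encodes C5, had 0 reads in all M0 libraries and 6 to 16 reads after LPS. Factor D (Cfd), the protease that activates factor B, had at most 1 read, and C2 at most 45 reads.

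**Figure D5:**
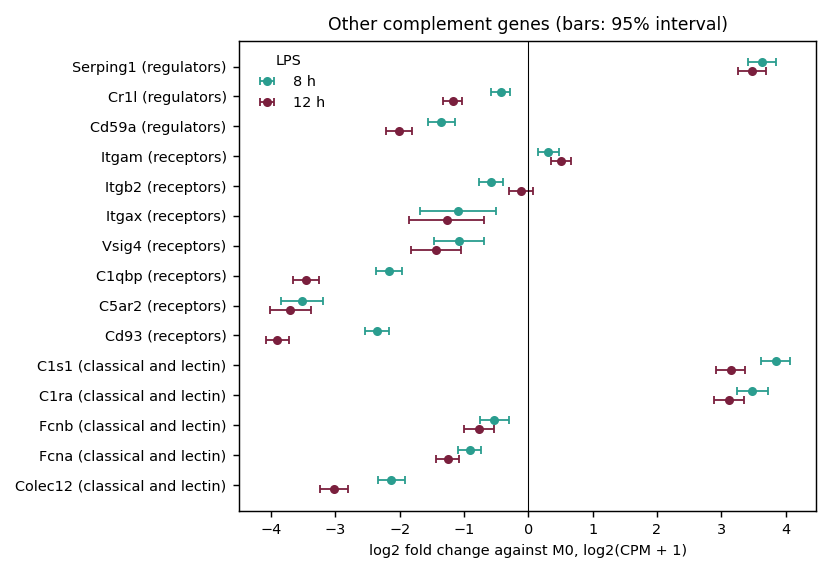
Log2 fold change at 8 h (green) and 12 h (dark red) of LPS against M0 for other complement genes that were tested, with 95% intervals and the role in brackets. C1ra, C1s1 and Serping1 lie above 3, and Cd93, C5ar2 and C1qbp lie at -3.46 or lower at 12 h.

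For each complement gene tested genes with the most similar profile over the 12 libraries were listed by Pearson r of log2(CPM + 1), as a description, since all points share libraries and the LPS contrast. C3 was closest to F10 (0.999), Pou3f1 and Tlr9, and Cfb to Saa3 (0.999), Fpr1 and Slamf1. C5ar1 was closest to Fdps (0.993), Gna15 and Chst14, and C3ar1 to Entpd7 (0.988) and Pld1. Cfp was closest to Inpp1 (0.976), Thada and Pgk1. C1qb was closest to Lrp10 (0.978), Tmbim6 and Plod3, C1qa to Copa (0.940), Bsdc1 and Acot7, and C1qc to Tbc1d10b (0.911), Ahsa1 and Ppp1r11, with no C1q gene among the neighbours listed because the complement genes themselves were left out. C4b was closest to Ltbp1 (0.895), Atrnl1 and Timd4, and Ltbp1 and Timd4 were also among the genes high in wt M0 replicate 1.

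The macrophage identity of the cultures was checked with 6 markers. Adgre1, Cd68, Csf1r, Fcgr1, Mertk and Lyz2 were detected in every library, with a sum of 19571 to 26488 CPM in M0, 8774 to 11804 CPM at 8 h and 8357 to 9432 CPM at 12 h. The lower sum after LPS came mostly from Lyz2 and Csf1r, whereas Fcgr1 went from 59.6 to 65.1 CPM in M0 to 1105 to 1348 CPM after LPS and Mertk from 28.9 to 40.1 CPM to 180.5 to 302 CPM. Markers of other cells were low, apart from some of neutrophils and their precursors. T cell markers summed to at most 0.0611 CPM and B cell markers to at most 0.309 CPM. The hepatocyte markers Alb, Apoa1 and Ttr summed to at most 0.103 CPM, and Ttr was at 0 in all 12 libraries. Of 4 neutrophil and precursor markers, Ly6g was at 0.131 CPM at most. S100a8 was at 8.79 to 50.3 CPM, Mpo at 0.516 to 31.5 CPM and Elane at 0.159 to 11.7 CPM over all libraries. The 4 summed to 18.4 to 47.7 CPM in wt M0 and 57.8 to 62.0 CPM in Treml4-/- M0. After LPS the sums were 31.3 to 42.2 CPM in wt and 37.5 to 63.4 CPM in Treml4-/-. Dendritic cell markers summed to 0.551 to 0.835 CPM in M0 and 2.53 to 7.59 CPM after LPS, a difference carried by Xcr1 (0 in all M0 libraries and 7.19 CPM at most), whereas Flt3 was at 0.713 CPM at most and Zbtb46 at 0.337 CPM at most. Fibroblast markers summed to at most 1.25 CPM, reached in wt M0 replicate 1, the library that also held the highest B cell sum. The part of these shifts in the complement values was not tested.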

How the data were processed

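RNA-seq was performed on total RNA of 12 BMDM samples with strand-specific poly(A) libraries and paired-end reads. Alignment used STAR and gene counting used Subread, and the authors deposited log2 CPM, which held a prior count of 0.25 reads. Per the labels the genome build was mm10. The annotation and the strand setting of the counting are not given in the sources used here. The authors' own gene lists used DESeq2.

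Groups came from the sample labels. The design had assumed CPM, so the deposited log2 values were converted to CPM. Every value (100%) corresponded to a whole number of reads, and the log2 CPM rebuilt from those reads deviated by 5.2e-14 at most. Read counts cover counting error only. No replicate pair agreed within counting error (chi-square over its degrees of freedom 12.1 or higher).

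limma 3.58.1 (R 4.3.3) was fitted to log2(CPM + 1) of all 12 libraries, with a mean for each condition and a variance trend. The fit covered 12086 genes, those reaching 1 CPM in 2 or more libraries, and Benjamini-Hochberg adjustment ran over all of them. A call needed both an adjusted p below 0.05 and a change of 1.4-fold or more. On this scale a fold change understates that of low genes. The complement genes, the list of 43 others, the markers, the check genes and the rule of naming the 3 most similar genes per complement gene were chosen with earlier results of these data known. Of the genes these rules name, 2 are not reported here. The whole-table test was also run on simulated data. Positions and exon lengths are from GENCODE M21 (GRCm38), and promoters are from RefSeq (GRCm38.p6) with bases inside the GENCODE gene removed. Replicate numbers were not taken as pairs, since deviations of same-numbered libraries correlated at -0.26 to 0.30 between genotypes at the same time and at -0.27 to 0.46 between times of the same genotype. Python 3.11.15 (numpy 2.4.6, pandas 2.3.3) handled the tables.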

Additional observations from a re-analysis of the deposited data

Results flagged for a closer look

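Of 27 groups of 4 libraries, each gene at each time with both genotypes together, 2 had a library far from the other 3 relative to the group's range, and chance gives about 1 in 20. At 8 h, C3 in wt replicate 2 was at 5044 CPM (5043.76), whereas the other 3 libraries lay at 2963 to 3156 CPM. In M0, C4b in wt replicate 1 was at 13.6 CPM, whereas the other 3 libraries lay at 0.354 to 0.591 CPM. The same library held Fn1 at 37.4 CPM against 1.68 to 2.42 CPM, Alox15 at 9.76 CPM against 0.315 to 0.652 CPM and Prg4 at 8.77 CPM against 0.262 to 0.489 CPM in the other M0 libraries.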

How the results depend on the processing

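Across 24 alternative settings, the 93 counts of called complement genes outside the leave-one-out settings stayed within 1.5 times the reported ones. For wt against Treml4-/- and for the interactions these counts were all 0, as reported. A like count can also hold other genes. Quantile normalization called 6 at 12 h, with 4 upward and 2 downward, where C1qb was lost and C3ar1 was added. Leaving out each library in turn gave 6 to 7 called genes at 8 h, 5 to 7 at 12 h and 4 to 5 for 12 h against 8 h, and 0 to 1 for wt against Treml4-/- in M0 and for both interactions, where the 1 was C4b without wt M0 replicate 2. Directions turned for C1qa at 12 h with median of ratios scaling (0.64) and quantile normalization (0.16), for C3ar1 at 12 h with median of ratios scaling (0.44), and for C4b between genotypes at 8 h with both scalings (0.044 and 0.068). Without wt M0 replicate 1, C4b turned to -0.15 between genotypes in M0, 0.077 in the 8 h interaction and 0.53 in the 12 h interaction, and over all libraries left out in turn these ranged from -0.15 to 3.28, -3.35 to 0.077 and -2.90 to 0.53. The cause was not tested. With the replicate number as a block, and with genotype and replicate number together as a block, 7, 6 and 4 genes were called at 8 h, at 12 h and between them, as without it. Same-numbered libraries did not deviate together at every time. edgeR and DESeq2 on the recovered reads were planned and not run, since the deposited unit is log2, and voom, chosen after seeing the data, took their place. With 2 replicates per condition, small genotype differences could not be resolved.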
